A study of Mus musculus with 2 samples.

Results

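The 10 genes described here, out of 32285 in the count tables, encode the contractile filaments of mural cells and 2 signalling proteins those cells are known for. They were taken by gene symbol: Acta2, Tagln, Myh11, Cnn1, Myl9, Tpm1, Tpm2, Des, Rgs5 and Notch3. No cut on a measured value was used, but the members were chosen with earlier results of these data known. The 2 single-cell RNA-seq libraries come from the whole dorsal meninges of male C57BL/6 mice (C57BL/6J in the study's methods), given as 10 weeks of age in one label and 10 to 12 in another. One library pools 5 mice that had a Sham procedure, and the other pools 5 mice that had a mild closed-skull traumatic brain injury (TBI), both collected 1 week afterwards. The tissue was digested with collagenase, live single cells were sorted, and about 4000 cells per library were loaded on a droplet platform that tags transcripts at the 3′ end. Each group is therefore 1 library, no test between the groups could be made, and all intervals below are 95% intervals that cover counting error only.

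Mural cells are the pericytes of capillaries and the smooth muscle cells of larger vessels. Smooth muscle cells shorten when myosin, switched on by phosphorylation of its regulatory light chain, pulls on actin filaments that are dressed with tropomyosin and calponin, while desmin filaments hold the cell's contents together. Pericytes on capillaries carry little of this machinery as a rule and are better recognised by Rgs5 and by receptors such as Notch3 and Pdgfrb. Many contractile genes are switched on by serum response factor, which binds a short DNA element called the CArG box.

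Positions are those of the GENCODE annotation on GRCm38 (mm10). Acta2, which encodes alpha smooth muscle actin, lies at chr19:34241090-34255590 on the minus strand. Tagln, for the actin-binding protein transgelin, lies at chr9:45929619-45936058 on the minus strand, and Myh11, for the smooth muscle myosin heavy chain, at chr16:14194535-14291372 on the minus strand. Cnn1, for calponin, lies at chr9:22099216-22109630 on the plus strand, and Myl9, for the regulatory light chain of smooth muscle myosin, at chr2:156775420-156781658 on the plus strand. The tropomyosin genes Tpm1 and Tpm2 lie at chr9:67022590-67049406 and chr4:43514711-43523765, both on the minus strand. Des, for desmin, lies at chr1:75360329-75368579 and Rgs5, for a protein that shortens G protein signals, at chr1:169655501-169695813, both on the plus strand. Notch3, the Notch receptor of mural cells, lies at chr17:32120820-32166852 on the minus strand.

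Promoters of 3 members are shown, those of Acta2 and Myl9 because they alone held the CArG boxes described here, and that of Rgs5, with none, for comparison. Sequences from RefSeq (GRCm38.p6) matched 8 of the 10 members, and Tagln and Myh11 were not matched. Each line gives the 250 bases before the start that RefSeq annotates, 5′ to 3′ on the gene's strand, at chr19:34255374-34255623 for Acta2, chr2:156775214-156775463 for Myl9 and chr1:169655251-169655500 for Rgs5. Capitals mark CArG boxes with at most 1 of the 6 inner letters other than A or T, searched on both strands.
Acta2: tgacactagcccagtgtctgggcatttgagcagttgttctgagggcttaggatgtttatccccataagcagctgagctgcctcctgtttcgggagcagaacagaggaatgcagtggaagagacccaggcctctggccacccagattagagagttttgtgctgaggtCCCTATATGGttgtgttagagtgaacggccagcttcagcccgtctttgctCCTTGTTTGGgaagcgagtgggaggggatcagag
Myl9: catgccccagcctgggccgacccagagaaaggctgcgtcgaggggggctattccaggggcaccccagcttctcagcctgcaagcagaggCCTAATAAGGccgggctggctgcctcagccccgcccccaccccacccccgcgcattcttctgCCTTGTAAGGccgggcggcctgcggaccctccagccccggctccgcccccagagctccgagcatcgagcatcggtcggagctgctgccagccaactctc
Rgs5: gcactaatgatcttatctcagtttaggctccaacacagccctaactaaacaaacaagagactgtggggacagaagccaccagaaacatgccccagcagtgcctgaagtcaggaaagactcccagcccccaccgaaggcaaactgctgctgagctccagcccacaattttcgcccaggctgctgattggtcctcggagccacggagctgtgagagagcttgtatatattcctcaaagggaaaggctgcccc
Acta2 held 2 such elements, beginning 84 and 34 bases before the start, and Myl9 held 2, at 161 and 99 bases. These were the only members of the 8 with a match, and 8.59% of 32851 promoters of the same length held one. With all 6 inner letters A or T, Myl9 alone had a match, against 1.47% of all promoters. A match is a stretch of letters and says nothing of binding in these cells.

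UMIs (unique molecular identifiers, each standing for 1 captured transcript) were analysed in 2043 Sham cells and 3773 TBI cells that passed the limits on detected genes, mitochondrial UMIs and hemoglobin UMIs. The libraries held 7866611 and 13940740 UMIs in those cells, with medians of 2764 and 2663 per cell. The 10 members were left out of the genes on which cells were clustered and of the markers by which clusters were named, so that no class rests on them. The 26 clusters gave 18 named classes and 4 clusters that stayed unnamed. One cluster, with 22 Sham and 73 TBI cells, was named mural-like: 17 of 18 fixed markers were among its 50 leading genes, headed by Abcc9, Kcnj8 and Higd1b. It made up 1.08% of Sham cells (0.676 to 1.63) and 1.93% of TBI cells (1.52 to 2.43). No barcode of a mural-like cell occurred in both libraries, although 20 of all barcodes did.

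The 10 members together contributed 1892 UMIs in Sham and 5944 in TBI. Mural-like cells held 18.7% of them in Sham (17.0 to 20.5) and 46.7% in TBI (45.4 to 48.0). Of all UMIs in kept cells, the class held 26659 of 7866611 in Sham and 125519 of 13940740 in TBI. The class was thus a larger part of the TBI library, and its share of member UMIs follows that as well as the level in each cell. A single cell held a large part of the Sham total. This Sham barcode in an unnamed cluster, led by Sema3g, Gja5 and Gkn3, held 540 member UMIs, which is 28.5% of all member UMIs of the Sham library. That cell carried 90 of the library's 101 Myh11 UMIs, 107 of 272 Acta2 UMIs, 49 of 113 Tagln UMIs and 176 of 426 Rgs5 UMIs. It had 16287 UMIs and 4836 genes, with 38 UMIs of mural markers, 137 of endothelial markers and 78 of fibroblast markers, and was not among the predicted doublets. Whether it is 1 cell or several cells captured together was not tested. When the members were put back among the clustering genes, it moved to the mural-like class and the Sham share became 47.3%. With the cell left out of the total, the share was 26.2% (23.9 to 28.6), below that of the TBI library.

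**Figure D1:**
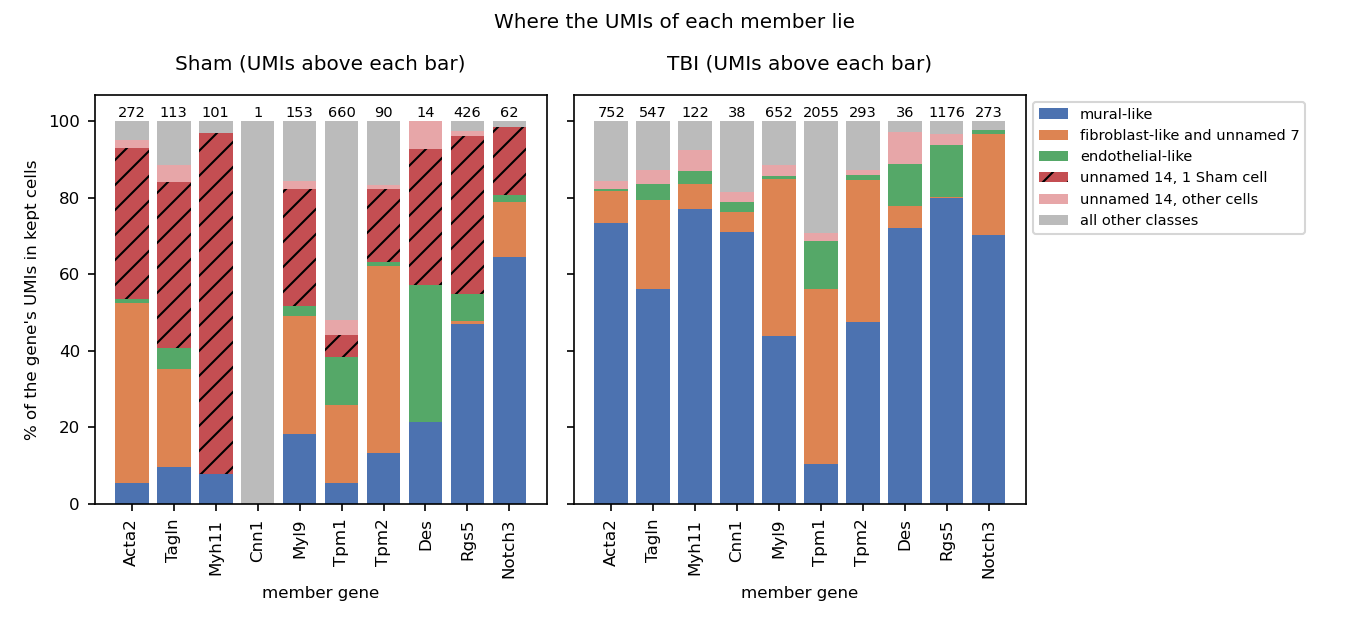
Stacked bars give the percentage of each member's UMIs, in kept cells, that lay in each class, for Sham (left) and TBI (right), with the gene's UMI total above each bar. The hatched part is 1 Sham cell of unnamed cluster 14, which held 89.1% of Sham Myh11 UMIs, and the TBI bars of most members are led by mural-like cells.

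In mural-like cells 2 patterns covered most of the members. Rgs5 and Notch3 had log2 ratios near 0 when scaled by the class total, and were spread over most cells. Acta2, Tagln, Myh11, Cnn1, Myl9 and Tpm2 were higher in the TBI library, and for each of these except Myh11 most of the TBI UMIs lay in the 5 cells highest in that gene. Of the 10 members, all with at least 10 UMIs in the class, 6 were at least 2-fold higher in TBI and 0 were at least 2-fold lower. Among all 3349 genes so measured in these cells, 16.4% were at least 2-fold higher and 12.6% at least 2-fold lower. Scaled by the median ratio of genes instead of the class total, which raises every TBI value by 0.33 on the log2 scale, these shares were 25.3% and 5.82%. The median log2 ratio of the members was 1.17, beside 0.00 for all genes. With Cnn1 set at its lower bound the median was 1.01, and 5 members were at least 2-fold higher. The count of 6 became 7 with median-of-ratios scaling. It became 4 as a mean over cells, in cells of at least 1000 UMIs only, and without the 5 top cells of each library. Des was among the 4 in the first and last of these. Shares of all genes were not computed for these versions.

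Acta2 marks the thin filaments of contractile cells. The 22 Sham mural-like cells held 0 to 6 Acta2 UMIs with a median of 0, and the 73 TBI cells held 0 to 122, also with a median of 0. Only 4 Sham and 26 TBI cells had any, so most cells of both libraries were at 0 and the libraries overlapped there. The 5 highest TBI cells held 122, 115, 108, 80 and 37 UMIs, which is 83.7% of the class's 552. The level, in UMIs per 1000000 UMIs of the class (CPM), was 563 in Sham (315 to 928) and 4398 in TBI (4038 to 4780.4), a log2 ratio of 2.92 (2.23 to 3.81). Without the 5 cells with the most member UMIs in each library, which were 5 of 22 cells in Sham and 5 of 73 in TBI, the levels were 274 and 971 CPM, and the ratio was 1.70 (0.55 to 3.48).

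Tagln was concentrated in a few cells as well. Its 11 Sham UMIs lay in 3 cells, the highest with 7, and its 308 TBI UMIs in 21 cells, the highest with 114. The levels were 413 and 2454 CPM, a log2 ratio of 2.51 (1.71 to 3.59). Leaving out the 5 top cells of each library left 0 Sham and 43 TBI UMIs. Cnn1 had 0 UMIs in 22 Sham mural-like cells, which by a floor of 3 counts allows a share of up to 13.6% of cells with a UMI, and 27 in 6 of 73 TBI cells. At a median depth of 1044 UMIs this sets no limit on the cells that express it. Against the floor of 3 counts in Sham, Cnn1 was 1.91-fold higher in TBI, a value that leaves out counting error on the TBI side. The interval of its log2 ratio began at 0.54 and had no upper end. Its place among the 6 depends on the 0.5 added to each sum.

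The tropomyosin genes are given next. Tpm2 had 0 to 4 UMIs per Sham cell and 0 to 24 per TBI cell, with medians of 0. Its level was 450.1 CPM in Sham and 1107 in TBI (log2 ratio 1.25, 0.45 to 2.29), with 66.9% of its TBI UMIs in 5 cells. Tpm1 had a median of 1.00 UMI per cell in both libraries, up to 6 in Sham and 46 in TBI. Its levels were 1388 and 1697 CPM, and the interval of its ratio included 0 (0.27, -0.22 to 0.83).

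The myosin genes were both higher in TBI. Myh11 was detected in 6 of 22 Sham cells, with at most 2 UMIs, and in 29 of 73 TBI cells, with at most 18. Its levels were 300.1 and 749 CPM (log2 ratio 1.24, 0.28 to 2.57). Its TBI UMIs were the least concentrated of the genes past 2-fold, with 46.8% in the top 5 cells. Without the 5 cells of each library that held the most member UMIs, the interval of its ratio included 0 (0.73, -0.39 to 2.34). Myl9 was found in 10 Sham and 40 TBI cells, at most 5 and 49 UMIs in 1 cell, and stood at 1050.3 and 2279 CPM (log2 ratio 1.09, 0.56 to 1.73). Des was sparse, with 3 UMIs in 2 Sham cells and 26 in 16 TBI cells, and its ratio was not resolved (0.69, -0.83 to 3.25).

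Rgs5 and Notch3, the signalling members, did not share this pattern. Rgs5 was present in 20 of 22 Sham cells, with a median of 9 UMIs and a maximum of 20. It was present in 66 of 73 TBI cells, with a median of 8 and a maximum of 66. The levels were 7502 CPM in Sham (6498 to 8617) and 7481 in TBI (7010.0 to 7975), and the log2 ratio was -0.01 (-0.23 to 0.22). Notch3 was present in 16 Sham and 64 TBI cells, with medians of 1.50 and 2.00 UMIs and maxima of 7 and 10. Its levels were 1500.4 and 1529.6 CPM, a log2 ratio of 0.01 (-0.47 to 0.56). Scaled by the median ratio of genes, the ratios of Rgs5 and Notch3 were 0.32 and 0.34. The medians of both genes were close between the libraries, whereas the highest raw TBI counts lay above the highest Sham count, most of all for Rgs5. The TBI class had more cells (73 against 22) and deeper ones, up to 7532 UMIs against 2106. The TBI cell with 66 Rgs5 UMIs had 7023 UMIs in all, while a Sham cell with 14 had 766. These raw maxima therefore do not compare levels. A 2-fold difference in either direction lay outside the counting intervals of the class-total ratios.

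**Figure D2:**
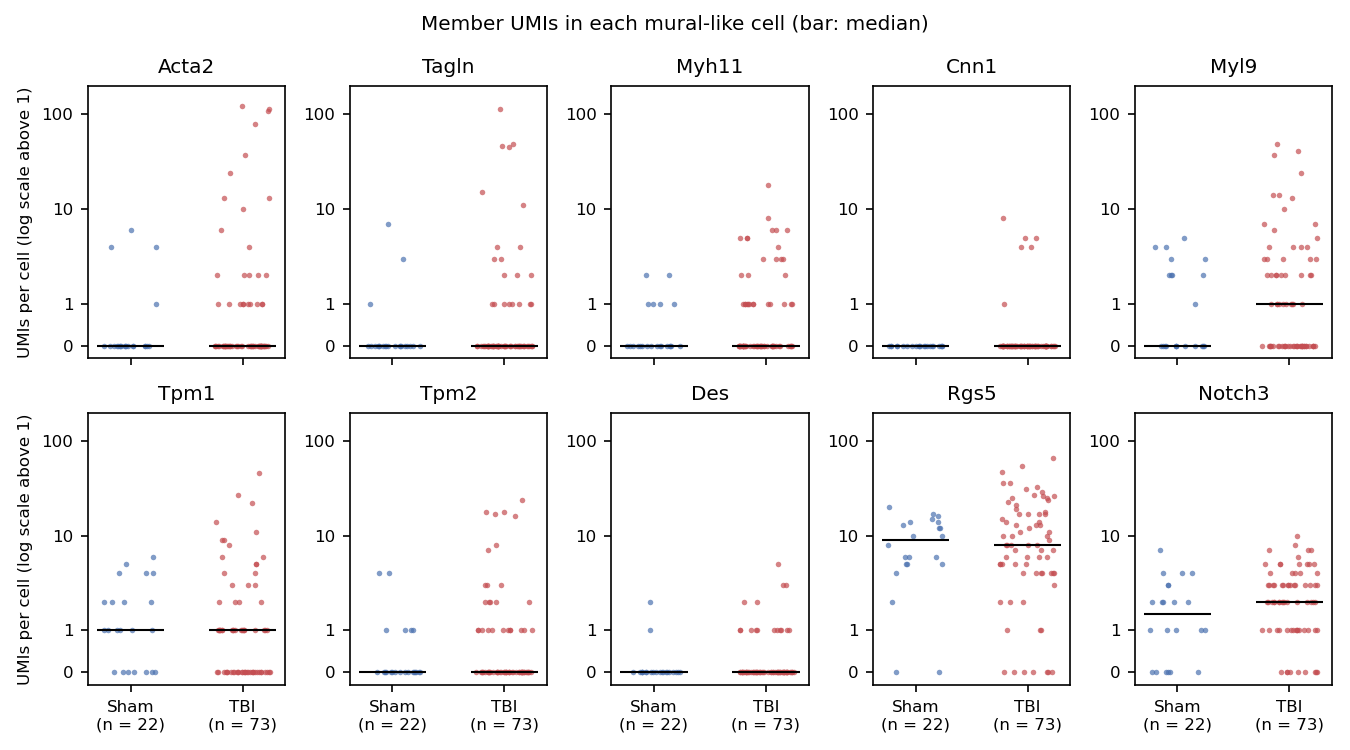
Each point is 1 mural-like cell (22 Sham, 73 TBI), placed by its UMIs of the member named above the panel on an axis that is logarithmic above 1, and the bar is the median. Rgs5 and Notch3 have close medians in both libraries, with some TBI cells above the highest Sham cell, whereas Acta2, Tagln, Myl9 and Tpm2 are at 0 or near it in most cells with a few TBI cells far above. Counts are not scaled for cell depth, which reached 2106 UMIs in Sham and 7532 in TBI.

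The 5 TBI cells with the most Acta2 were deeper than the rest. They had 4973 to 7532 UMIs, with a median of 7023, while the other 68 TBI cells had a median of 1034 and the Sham mural-like cells a median of 1044 and a maximum of 2106. As a percentage of each cell's UMIs, Acta2 was 0.493% to 2.17% in these 5 cells, against 0.347% in the Sham mural-like cell with the most. High percentages were not confined to deep cells. Of the other 68 TBI cells, 21 had an Acta2 UMI. Among them, 1 cell of 672 UMIs held 13 and 1 of 571 held 10, percentages inside the range of the 5 at depths inside the Sham range. No Sham mural-like cell had a depth near theirs, so the libraries cannot be compared among deep cells of this class. The 5 cells also stood apart in other genes. They held 4778 CPM of Rgs5 and 730.4 of Notch3, compared with 8439 and 1813 in the other 68, and 243 CPM of Abcc9, a potassium channel subunit of pericytes, compared with 1565. Vtn, a secreted protein often used to mark brain pericytes, was at 5874 CPM in them and 1284 in the others. Since these cells were picked for Acta2, these values describe them and were not tested.

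All 22 Sham mural-like cells, and 71 of 73 TBI cells, carried Rgs5 or Notch3. Acta2, Tagln and Myh11 were found together in 0 Sham and 15 TBI cells. Of the 26 TBI cells with Acta2, 22 also had Rgs5, and 5 TBI cells had Myh11 with no Rgs5. Over the 95 cells of both libraries, counts per 10000 on a log scale gave Pearson's r of 0.76 for Acta2 with Tagln, 0.57 for Acta2 with Myh11 and 0.59 for Acta2 with Tpm1. Myh11 with Rgs5 stood at -0.29 and Rgs5 with Notch3 at 0.17. Without the 5 cells the first value was 0.66. The cells share 2 libraries and their depths differ, so these are descriptions of sparse counts. When the mural-like cells were divided again, without the 10 members and the contraction apparatus genes listed further below, 3 groups formed. Rgs5 stood at 6869 to 9351 CPM over the groups and libraries. Acta2 differed more, at 6791, 316 and 1081 CPM in the TBI cells of the 3 groups (28, 24 and 21 cells). The 5 Acta2-rich cells, with 462 of the class's 552 TBI Acta2 UMIs, all lay in the first of these groups. Its level therefore rests largely on them, and the level without them was not computed. In Sham, Acta2 was at 1162, 313 and 574 CPM, in 4, 8 and 10 cells. Pericyte marker UMIs outnumbered smooth muscle marker UMIs in each, as raw sums with no scaling for how abundant each list is. These sums cannot tell the cell types apart, and the groups were left without names.

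The difference between the libraries depended on where the 1 Sham cell was placed. Summed over the 10 members, mural-like cells held 13279 CPM in Sham and 22116 in TBI, a log2 ratio of 0.73 (0.58 to 0.90). With the members kept among the clustering genes, the class had 23 Sham and 71 TBI cells, of which 92 were shared with the first version, where the summed ratio was 0.10 (-0.01 to 0.21). In that version Acta2 stood at 0.64, Tagln at 0.76, Myl9 at 0.40 and Myh11 at -1.52, so that Myh11 was lower in TBI. Rgs5 was then at -0.21 and Notch3 at 0.41. Without the 5 top cells of each library, in the first version, the summed ratio was 0.44 (0.23 to 0.66).

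**Figure D3:**
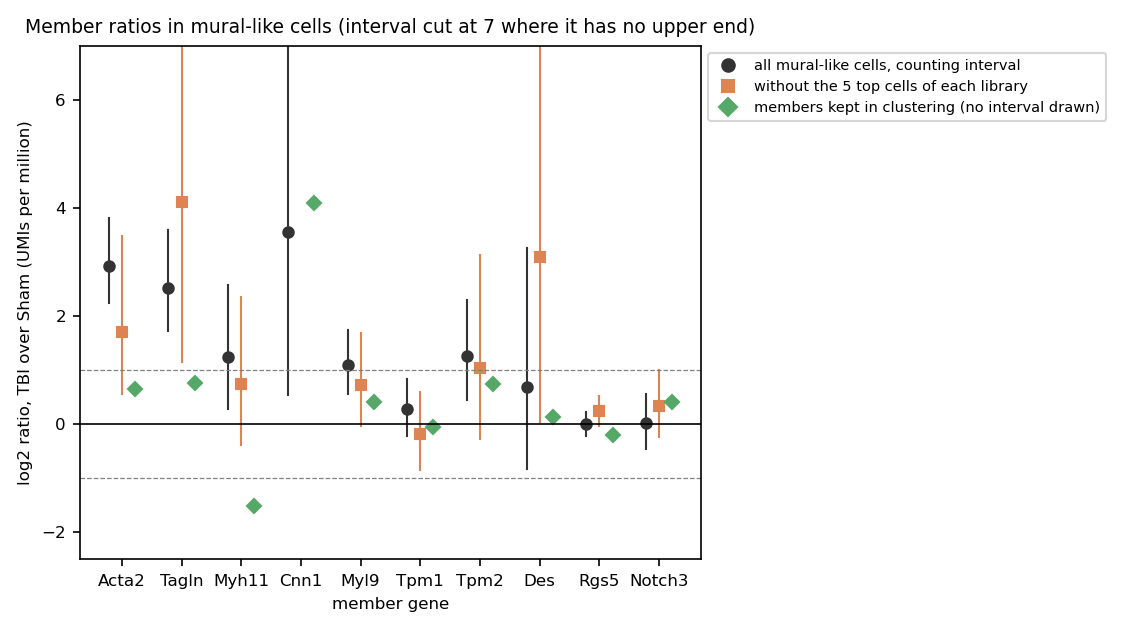
Log2 ratios of TBI over Sham in mural-like cells for each member, with 95% counting intervals for all cells (black circles) and without the 5 top cells of each library (orange squares), and as a value alone when the members were kept in clustering (green diamonds). Intervals with no upper end, where Sham held 0 UMIs, are cut at the top, and the points there are fitted values and no bounds. Rgs5 and Notch3 lie between -0.21 and 0.41 in these versions, and Myh11 changes sign.

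Taken over all kept cells, where no class has to be drawn, 9 of the 10 members were higher in the TBI library. The median log2 ratio was 0.84 for the members and 0.11 for all genes with at least 10 UMIs, so genes in general also leaned higher. The share of all genes that were higher was not computed, so the count of 9 cannot be read as particular to the members. At least 2-fold higher were 4 of them (Tagln, Cnn1, Myl9 and Notch3) while 0 were at least 2-fold lower, beside 10.5% and 2.62% of all 16053 genes with at least 10 UMIs. Acta2 stood at 34.6 and 53.9 CPM (log2 ratio 0.64), Rgs5 at 54.2 and 84.4 (0.64) and Tagln at 14.4 and 39.2 (1.44). Myh11 was lower in TBI, at 12.8 CPM in Sham and 8.75 in TBI (-0.55, -0.95 to -0.16). Without the 1 cell in each library with the most member UMIs, Myh11 stood at 1.40 and 8.54 CPM and its ratio was 2.55 (1.72 to 3.65). The same step moved Acta2 to 1.12 (0.87 to 1.38), Rgs5 to 1.32 (1.12 to 1.53) and Tpm2 to 1.08 (0.71 to 1.48). It left 8 of the 10 members at least 2-fold higher and 0 at least 2-fold lower, beside 10.7% and 2.61% of 16052 genes. These sums follow the share of mural-like and fibroblast-like cells in each library as well as the level in each cell, and the 2 cannot be told apart in them.

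Outside the mural-like class, fibroblast-like cells (68 Sham, 457 TBI) held Tpm1, Myl9, Tpm2, Tagln and Acta2. Fibroblasts use tropomyosin and non-muscle actin for shape and movement, and myofibroblasts are known for Acta2. Here 6 members had at least 10 UMIs. Acta2 and Tpm2 were at least 2-fold lower in TBI and Notch3 at least 2-fold higher, beside 6.51% and 7.46% of 11065 genes. Acta2 was at 472 and 37.2 CPM, a log2 ratio of -3.66 (-4.13 to -3.22), but 119 of its 128 Sham UMIs lay in 1 cell of 16558 UMIs. That cell also had 637 UMIs of fibroblast markers, 21 of Tpm2, and 0 of Myh11, Rgs5 and Notch3. Without the top cell of each library, Acta2 was at 35.4 and 37.4 CPM (0.01, -0.94 to 1.28), and Tpm2 at 78.6 and 56.7 (-0.50, -1.18 to 0.30). Only 3 of 68 Sham and 16 of 457 TBI fibroblast-like cells had an Acta2 UMI.

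Tpm1 and Myl9 were spread widely in fibroblast-like cells. Tpm1 was found in 38 of 68 Sham cells and 248 of 457 TBI cells, at 321 and 399 CPM (log2 ratio 0.31, -0.01 to 0.66). Myl9 was found in 17 and 129 cells at 155 and 147 CPM (-0.09, -0.56 to 0.43). Notch3 had 3 Sham UMIs and 55 TBI UMIs, the latter in 40 cells with at most 4 each, at 11.1 and 33.0 CPM, and its interval included 0 (1.37, -0.04 to 3.90). An unnamed cluster led by Snhg11, Foxp2 and Bnc2 held Tpm1 at 517 and 482 CPM and at most 3 Acta2, Myh11, Des or Rgs5 UMIs per gene and library.

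Endothelial-like cells (264 Sham, 492 TBI) had at least 10 UMIs of 3 members. Rgs5 was at least 2-fold higher in TBI and 0 members were at least 2-fold lower, beside 5.93% and 2.43% of 10247 genes. Rgs5 rested on 30 UMIs in 9 Sham cells and 162 UMIs in 36 TBI cells, at 56.7 and 139 CPM (log2 ratio 1.27, 0.72 to 1.90). The TBI share of cells, 7.32% (5.18 to 9.99), can be set beside 0.699% in TBI B-like cells, which should lack Rgs5, with median depths of 2089 and 2654 UMIs. Thinned to 1000 UMIs per cell, the shares were 5.47% and 0.393%. Most of these UMIs were in the cluster led by Gpihbp1, with 136 in 24 TBI cells, and those cells held a mean of 1.58 UMIs of the mural markers against 0.189 in cells of that cluster with no Rgs5. Whether endothelial and mural cells shared droplets was not tested. Tpm1 stood at 157 and 221 CPM (0.49, 0.13 to 0.87).

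Without its 1 high Sham cell, the unnamed cluster led by Sema3g, Gja5 and Gkn3 held few member UMIs. Its other 46 Sham cells held 6 Acta2, 0 Myh11 and 5 Rgs5 UMIs, and its 88 TBI cells held 16, 7 and 33. Tpm1 was then at 284 CPM in Sham and 268 in TBI. Another unnamed cluster, led by Cspg5, Cntnap2 and Edn3, had Acta2 in 5 of 10 Sham and 10 of 47 TBI cells. Its Acta2 levels were 340.2 and 154 CPM, from 7 and 14 UMIs with at most 3 and 4 in 1 cell.

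Tpm1 was the member found most widely. It was present in 21 of the 22 classes and clusters in each library and had 0 UMIs in neutrophil-like cells, and in macrophage-like cells it stood at 41.8 and 49.1 CPM. Notch3 had no UMI in 16 of 22 classes in Sham and 14 in TBI, and Des none in 19 and 16. Acta2 was detected in 1 of 331 Sham macrophage-like cells and in 29 of 722 TBI cells, with 45 UMIs and at most 4 in 1 cell. The levels were 0.643 and 12.9 CPM (log2 ratio 3.76, 1.78 to 9.66). The TBI share of 4.02% (2.71 to 5.72) was 1.10% when cells were thinned to 1000 UMIs, while B-like TBI cells stood at 0.192% after the same thinning, with 1 of 286 cells before it. The median depths of these macrophage-like and B-like TBI cells were 4367 and 2654 UMIs. Sham macrophage-like cells stood at 0.284% after thinning. Thinned TBI shares in other classes were 0.224% in T-like, 0.366% in dendritic-like and 1.01% in NK-like cells. They were 1.45% in immature B-like and 8.29% in neutrophil-like cells, so the macrophage-like share lay inside the range of other classes. Tagln was at 3.86 and 9.48 CPM in macrophage-like cells (1.20, 0.02 to 2.84), and Rgs5 at 1.93 and 2.30 (0.12, -1.81 to 2.80). In immature B-like TBI cells, 13 of 15 Acta2 UMIs lay in 1 cell, and in proliferating-like TBI cells 14 of 15. Schwann-like cells held Myl9 at 192 and 224 CPM and Tagln at 82.2 and 112.

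**Figure D4:**
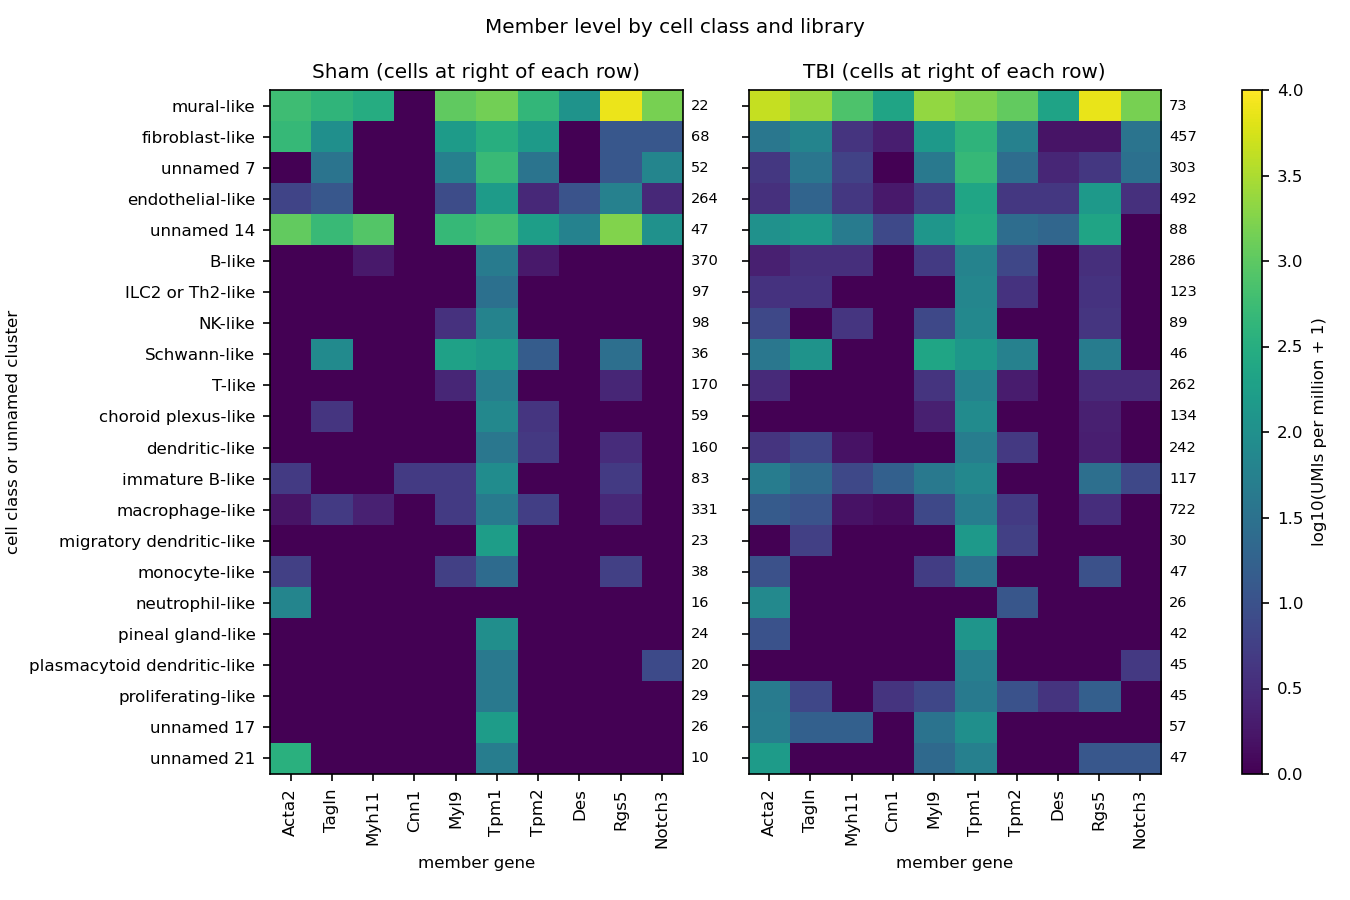
The color gives the level of each member, as log10 of CPM plus 1, in each class or unnamed cluster of the Sham (left) and TBI (right) libraries, with the number of cells beside each row. Mural-like cells hold every member in TBI, Tpm1 is found in every row except neutrophil-like cells, and Rgs5 is highest in mural-like cells in both libraries.

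The other genes of the contractile system, from lists chosen with earlier results known, were measured in mural-like cells. Of 26 measured genes of the contraction apparatus, 7 were at least 2-fold higher in TBI and 3 at least 2-fold lower. Of all 3349 genes in the class, 16.4% were higher and 12.6% lower by that fold, or 25.3% and 5.82% with median-of-ratios scaling. Genes with 0 Sham UMIs, such as Actg2, are always counted as past 2-fold, here and in the lists that follow. The median log2 ratio of the list was 0.43 (0.00 over all genes). The 4 most abundant were Vim, Cald1, Myl6 and Flna. Vim, the intermediate filament protein of mesenchymal cells, was at 600.2 and 2414 CPM (1.97, 1.28 to 2.83), with 66.0% of its TBI UMIs in the 5 cells highest in Acta2. Cald1, for caldesmon, and Myl6, the essential light chain of myosin, both had log2 ratios of 0.57, and Flna, for the actin crosslinker filamin A, had 1.07. Actg2, the enteric form of smooth muscle actin, had 0 UMIs in Sham and 54 in TBI, 44 of them in the same 5 cells.

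Genes that regulate contractile expression gave a median of -0.31, with 1 of 9 at least 2-fold higher and 2 lower. The gene counted as higher had 0 UMIs in Sham, so that its call was fixed in advance. The shares of all 3349 genes, 16.4% and 12.6%, stand beside each count in this paragraph. Ebf1 was at 1913 and 1585 CPM, Mef2c at 563 and 509.9, and Tgfb1i1, a coactivator at focal adhesions, at 338 and 319. Mef2a was at least 2-fold lower (-1.61, -2.55 to -0.59). Myocd, the coactivator of serum response factor in smooth muscle, had 0 and 2 UMIs, and Srf itself 0 and 3. For Notch ligands, receptors and targets the median was -0.22, with 0 of 6 higher and 1 lower. Heyl, a target of Notch3 in mural cells, stood at 263 and 351 CPM (0.33), Notch1 at 225 and 159, the ligand gene Jag1 at 188 and 151 and the target Hes1 at 113 and 159.

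Rgs4, the most abundant other RGS gene, was at 413 and 311 CPM, and 0 of 3 measured genes of that family were past 2-fold. Beside this and the next 2 counts, 16.4% of all 3349 genes were at least 2-fold higher and 12.6% at least 2-fold lower. For vasoactive receptors and channels, 2 of 14 were at least 2-fold higher and 3 lower, with a median of -0.47. Of the 2 higher, 1 had 0 UMIs in Sham, so that its call was fixed in advance. Kcnj8, the pore subunit of the pericyte potassium channel, was at 638 and 1673 CPM (1.35, 0.68 to 2.20). The 5 Acta2-rich cells held 11.0% of its TBI UMIs, and the other 187 UMIs lay in 38 of the remaining 68 TBI cells. Scaled for depth, Kcnj8 was at 700.0 CPM in the 5 cells and 2018 in the other 68. The share in the cells highest in Kcnj8 was not computed. The gene of its partner subunit, Abcc9, was at 1650.5 and 1219 CPM and Gucy1a1, for a subunit of the nitric oxide receptor, at 638 and 613. Of 12 pericyte markers that are not members, 1 was higher and 1 lower (median -0.34). Pdgfrb, the receptor that recruits pericytes, was at 3601 and 2127 CPM (-0.76, -1.10 to -0.41), Vtn at 1951 and 2486 and Steap4 at 1575 and 1362. These markers took part in clustering, so their levels describe the class.

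Genes known to be induced by tissue dissociation had 5 of 13 at least 2-fold higher in TBI mural-like cells, 1 lower and a median log2 ratio of 0.71. The shares of all 3349 genes were 16.4% and 12.6%. Rhob, Hsp90aa1 and Jun had log2 ratios of 0.71, 0.71 and 0.69, each with an interval that included 0, as did Jund at 0.69. The 5 past 2-fold were Fos, Junb, Egr1, Ier2 and Nr4a1. All of these except Fos had 0 UMIs in Sham and are therefore always counted as past 2-fold. The count of 5 was thus largely fixed in advance and cannot be read against the share of all genes. Egr1 had 25 UMIs in TBI and Junb 21, and the intervals of both ratios excluded 0, with lower ends of 0.42 and 0.15. Nr4a1 had 18 and Ier2 had 11, with lower ends of -0.10 and -0.91. Fos had 1 UMI in Sham and 16 in TBI, and its interval included 0 (1.22, -0.92 to 7.15). Of the marker lists of other classes, fibroblast markers were highest in mural-like cells, at 17179.9 CPM in Sham and 16372 in TBI. They were found in 20 of 22 and 73 of 73 cells, and the mural markers summed to 15867 and 14388 CPM. Red cell markers summed to 2663 and 598 CPM. Markers of macrophages summed to 488 CPM in Sham and 1450.0 in TBI mural-like cells, with 6 and 13 of 13 detected. Endothelial markers summed to 300.1 and 613, with 2 and 12 of 15. Skeletal muscle markers had 0 of 9 detected in either library. The part of dissociation and of admixed cells in the member ratios was not tested.

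Across 42 profiles, 1 for each of 21 classes with at least 15 cells in both libraries, the genes most like the mean of the members were Ndufa4l2, Gucy1b1, Mustn1, Meox2, Olfml2a, Aspn, Ccdc3 and Pcdh19. Their Pearson's r ranged from 0.85 to 0.88, and the profiles share 2 libraries and differ in depth. Mural-like cells held 69.8% of Ndufa4l2 UMIs, 60.7% of Gucy1b1 UMIs and 58.9% of Mustn1 UMIs, but 20.7% of Meox2 UMIs. Ndufa4l2, Gucy1b1 and Aspn were among the markers that named the class, and none of the 8 genes was kept out of clustering. Their likeness and shares are therefore partly set by how the class was drawn. Among the members themselves, the share in mural-like cells ran from 9.21% for Tpm1 to 71.1% for Rgs5.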

How the data were processed

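Single-cell RNA-seq was done on 1 Sham and 1 TBI library. The authors deposited unnormalized UMI counts for each barcode, obtained with Cell Ranger on mm10. The labels name version 2.1.1 and the matrix headers 3.1.0, and for the gene annotation no release is given in the sources used here. The matrices hold 9527334 Sham UMIs in 2699 barcodes and 15011079 TBI UMIs in 4349.

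Cells with 150 to 5000 genes, at most 20% mitochondrial and at most 5% hemoglobin UMIs were kept. They were clustered without batch correction in scanpy 1.11.5 (2000 variable genes, the 10 members excluded, 20 principal components, 20 neighbours, Leiden resolution 0.8, seed 1). A cluster was named from at least 3 markers among its 50 leading genes. Doublets were left in, since the automatic limit marked under 0.5% of cells. In an alternative, the highest scores were removed at 0.8% per 1000 cells (33 Sham, 114 TBI).

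UMIs were summed per class and library and expressed as CPM. Log2 ratios had 0.5 added to each sum. Intervals are exact (binomial or Poisson, 95%). Genes with at least 10 UMIs over both libraries were counted, and for Cnn1 a fold against 0 used a floor of 3 counts. In mural-like cells, a gene with 0 Sham UMIs and at least 10 in TBI is always counted as past 2-fold, because of the 0.5 added. Shares thinned to 1000 UMIs are expected values over cells of at least that depth, 12 Sham and 42 TBI cells in the mural-like class. All 10 members were named, with genes from the 4 most abundant of each list (1 is not reported here, and of the RGS list only the first is given) and the 8 genes most like the members; Actg2, Myocd, Srf, Mustn1, the dissociation-induced genes past 2-fold and the genes describing the 5 Acta2-rich cells were chosen after their values were seen. The members and lists were chosen with earlier results of these data known. Ratios were tested on simulated data. The alternatives tried were another scaling, cell weights, cell filters, clusterings, UMI minimums and leaving out top cells.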

Additional observations from a re-analysis of the deposited data

Results flagged for a closer look

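The direction of 2 members differed between 2 classes. Acta2 had a log2 ratio of TBI over Sham of 2.92 in mural-like cells and -3.66 in fibroblast-like cells, and Tpm2 had 1.25 and -1.43. With 1 library per group, the difference between the classes was not tested. In fibroblast-like cells both values rested on 1 Sham cell, without which, and without the top TBI cell, they were 0.01 and -0.50.

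Barcodes that failed the filters, 656 in Sham and 576 in TBI, entered no comparison of the report, although those above the hemoglobin limit were put back in 1 alternative. Among the failed barcodes, 6 members had higher levels in TBI, beyond their counting intervals. The share of all genes that did so was not computed. The hemoglobin limit was exceeded by 604 of the Sham and 431 of the TBI barcodes, so the count cannot be read as particular to the members. Tpm1 was at 155 CPM in TBI (89.7 in Sham), Rgs5 at 44.8 (1.81), Myl9 at 28.0 (4.22), Acta2 at 13.1 (1.20), Notch3 at 13.1 (0.602) and Tagln at 10.3 (0.602). One barcode held 34 of the 48 TBI Rgs5 UMIs and 1 barcode 9 of the 14 Notch3 UMIs.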

How the results depend on the processing

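Of 95 values of the main results under other settings, 73 stayed within 1.5 times the count or inside the counting interval. A count of 4 in place of 6 members at least 2-fold higher in mural-like cells stayed within that limit. With the members kept in clustering, 1 member was at least 2-fold higher in mural-like cells and 1 lower, the summed log2 ratio was 0.10, the Sham share of member UMIs in the class was 47.3%, and Myh11 reversed to -1.52, since the 1 Sham cell entered the class. The summed ratio was 1.06 with median-of-ratios scaling, 0.50 as a mean over cells and 0.44 without the 5 top cells, an alternative chosen after seeing the data. For fibroblast-like cells, 0 members were higher at resolution 0.4, and the number lower was 1 as a mean over cells, 0 without the top cell and 4 with a minimum of 1 UMI. For endothelial-like cells, 0 were higher as a mean over cells or at resolution 0.4 and 2 with a minimum of 1 UMI, and 8 were lower at resolution 0.4, where the cluster with the 1 Sham cell joined the class, and 2 with a minimum of 1 UMI. The share in mural-like cells with only cells of at least 1000 UMIs was 15.3% in Sham and 43.9% in TBI, and 16.6% and 43.3% without the top cell. Also chosen after seeing the data, leaving the 1 Sham cell out of the total gave a Sham share of 26.2%, and over all kept cells 8 members were at least 2-fold higher without the top cell of each library, against 4 with it. Except where stated, the cause was not tested.

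No paired analysis was possible because each group has 1 library, and leaving out a replicate was not possible for the same reason. With 26659 Sham UMIs in mural-like cells, 3 counts correspond to 113 CPM, so low members such as Cnn1 and Des could not be compared at this depth.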
